A study of Homo sapiens with 12 samples.

Results

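The hypoxia response and glycolysis genes were a list of 44 genes, followed by gene name through a table of RNA sequencing counts of 26485 genes in HEL cells, an established human erythroleukaemia line used as a model of acute myeloid leukaemia. Members were matched by name, and the list was drawn up with earlier results of these data known: 2 alpha subunits of hypoxia-inducible factor (HIF), 2 HIF hydroxylases, 20 HIF targets outside metabolism, 2 glucose transporters, 16 glycolytic enzymes and 2 pyruvate dehydrogenase kinases. All 44 were in the table, and 42 of them passed the filter on low counts and were among the 14164 genes tested; carbonic anhydrase 9 (CA9) and stanniocalcin 2 (STC2) did not pass.

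Barcoded HEL cells were exposed for about 72 h to drug, cleared of dead cells and regrown for about 30 days to the number first seeded, which gave a relapse. Relapses followed 1.8 µM doxorubicin (Doxo, n = 3), 1.8 µM doxorubicin with 6 µM cytarabine (Doxo+Cyta, n = 3), or both drugs with 0.1 µM decitabine (Doxo+Cyta+DAC, n = 4), and NT cells (n = 2) received DMSO, with no sampling day given in the labels used here. Doxorubicin poisons topoisomerase II, cytarabine stops DNA chains, and decitabine is a cytidine analog that traps DNA methyltransferases. The comparison asked how far adding decitabine to the first treatment changed what the regrown cells expressed. All groups came from a single cell line, replicates are described as biological, decitabine alone was not analysed here, and a 5% CO2 incubator is named in the labels but no oxygen level. The design speaks of 3 untreated replicates, and 2 are labelled and used. Total counts ranged from 12763582 to 19106235 per library. Doxo replicate 4 and Doxo+Cyta replicate 20 stood apart from the other libraries of their groups. Counts of members called and the HIF1A change are given with and without them, and most other results only with them. The study's design cannot tell a shift in the share of cells of some state from a shift in the RNA of every cell.

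HIF is the transcription factor by which cells answer low oxygen. With oxygen present, prolyl hydroxylases (EGLN) mark its alpha subunit for VHL-dependent destruction. Without oxygen the alpha subunit persists, pairs with ARNT and binds short core motifs in DNA, so most control of HIF lies in protein stability and not in the level of its mRNA. Its targets fall into those that carry glucose through glycolysis, where one member of an isozyme pair is often the more hypoxia-responsive, and those that serve other ends: vessel growth, mitophagy, collagen processing, chromatin demethylation and feedback on HIF itself.

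A microRNA and a set of upstream sequences are shown first, because HIF is known to induce the microRNA and to bind core motifs upstream of its targets. The mature forms of miR-210 in RefSeq, with the seed (bases 2 to 8) in capitals, are:
hsa-miR-210-3p: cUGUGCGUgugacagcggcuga
hsa-miR-210-5p: aGCCCCUGcccaccgcacacug
They lie on the minus strand at chr11:568112-568133 and chr11:568150-568171 (GRCh38), inside the hairpin gene MIR210 at chr11:568089-568198, which sits in the intron of its host transcript MIR210HG and overlaps none of the 2 host exons that were counted. The libraries held fragmented long RNA, so a MIR210 count stands for RNA across the hairpin and not for the mature microRNA.

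Upstream sequence is printed by a rule of size: by the mean log2 fold change against Doxo and Doxo+Cyta, for the 4 members with the largest falls (ANKRD37, MIR210HG, ALDOC and INSIG2) and the 2 with the largest rises (PFKFB3 and PFKP) among those with at least 80 printable bases. VLDLR, ENO2 and P4HA2 fell as much and had fewer such bases. NDRG1 and MIR210 also fell as much and had no RefSeq window. Each run is the longest stretch, at most 200 bases, of the 250 bases before a RefSeq start (GRCh38.p14) that no exon of the count table or of GENCODE covers. PFKP has 4 such starts, and its run lies before one that is inside the counted gene. Capitals mark the core motifs ACGTG and GCGTG on either strand, so that CACGTG, an E-box, is a match on both strands at once.
ANKRD37 (chr4:185396591-185396685, plus strand): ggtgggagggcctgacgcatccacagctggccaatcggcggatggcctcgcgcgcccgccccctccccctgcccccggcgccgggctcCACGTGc
MIR210HG (chr11:568458-568657, minus strand): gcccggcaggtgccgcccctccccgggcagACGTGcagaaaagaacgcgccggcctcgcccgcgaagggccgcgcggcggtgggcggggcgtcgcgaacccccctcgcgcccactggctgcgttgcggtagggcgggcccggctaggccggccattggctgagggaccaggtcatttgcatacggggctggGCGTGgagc
ALDOC (chr17:28576949-28577145, minus strand): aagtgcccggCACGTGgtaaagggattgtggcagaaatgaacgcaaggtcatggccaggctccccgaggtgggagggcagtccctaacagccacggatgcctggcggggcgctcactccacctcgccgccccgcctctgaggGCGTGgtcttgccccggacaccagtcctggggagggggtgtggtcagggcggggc
INSIG2 (chr2:118088252-118088451, plus strand): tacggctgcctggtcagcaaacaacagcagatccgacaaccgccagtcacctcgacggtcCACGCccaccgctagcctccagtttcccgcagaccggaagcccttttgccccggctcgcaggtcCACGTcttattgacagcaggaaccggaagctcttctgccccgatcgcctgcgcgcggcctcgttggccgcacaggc
PFKFB3 (chr10:6144680-6144879, plus strand): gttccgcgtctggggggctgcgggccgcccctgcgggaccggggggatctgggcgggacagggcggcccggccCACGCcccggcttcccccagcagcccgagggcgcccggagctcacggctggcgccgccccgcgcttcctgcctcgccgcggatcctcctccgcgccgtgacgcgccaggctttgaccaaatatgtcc
PFKP (chr10:3067770-3067969, plus strand): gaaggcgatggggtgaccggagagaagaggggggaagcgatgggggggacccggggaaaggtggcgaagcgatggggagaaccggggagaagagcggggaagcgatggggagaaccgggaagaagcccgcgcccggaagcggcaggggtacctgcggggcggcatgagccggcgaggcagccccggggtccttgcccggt
In these runs the core letters stood 3 times in ALDOC, 2 times each in ANKRD37, MIR210HG and INSIG2, 1 time in PFKFB3 and not at all in PFKP. Both starts of PFKFB3 and 2 of the 4 starts of PFKP had a match in their whole windows. P4HA2, which fell, had none in its window. RefSeq windows were at hand for 39 of the 44 members and not for VEGFA, BNIP3L, NDRG1, MIR210 and SLC2A3. Counted by gene, at least 1 core match stood in a window of 15 of 16 HIF targets outside metabolism and of 14 of 16 glycolytic enzymes, against 56.8% of 15843 protein-coding genes. Counted by window the shares were 19 of 20, 20 of 31 (HK1 alone has 7 windows, 1 of them with a match) and 49.3% of 22199, and the median number of CG pairs per window was 24, 25 and 16 in the same order. A core of 5 letters is short and holds a CG pair, and these are reference letters and not evidence of binding.

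Relapses after Doxo+Cyta+DAC held far less RNA of HIF targets outside metabolism than any other group, while the glycolytic enzymes split in both directions around little change. Against Doxo, 18 of the 18 tested HIF targets outside metabolism were lower and their median log2 fold change was -2.06. Against Doxo+Cyta, 17 were lower and none higher, with a median of -1.97, and against NT 17 were lower and 1, ADM, was higher, with a median of -1.60. The 16 glycolytic enzymes gave 6 higher and 6 lower against Doxo (median -0.18), 4 higher and 8 lower against Doxo+Cyta (median -0.30), and 5 higher and 4 lower against NT (median -0.06). The share of all tested genes called lower was 30.4% against Doxo, 30.5% against Doxo+Cyta and 23.7% against NT, and the share called higher was 29.1%, 29.8% and 24.9%, with medians over all genes within 0.024 of 0. Among the HIF targets 17 or 18 of 18 lower calls stood well above that share in each comparison, whereas among the enzymes 4 to 8 of 16 lay nearer to it. Over all 42 tested members, 6 were higher and 29 lower against Doxo, 5 and 28 against Doxo+Cyta, and 7 and 24 against NT. In all 3 comparisons 24 members were lower and 4 higher. The share of all tested genes called in all 3 was not counted, and it cannot exceed the shares against NT, 23.7% lower and 24.9% higher. These comparisons share the Doxo+Cyta+DAC libraries. Throughout, a call is an adjusted p under 0.05 from edgeR's quasi-likelihood test with Benjamini-Hochberg adjustment over all tested genes, and levels are CPM, in which TMM factors put all libraries on 1 scale. Without Doxo replicate 4 and Doxo+Cyta replicate 20, 18 HIF targets were lower against Doxo and 17 against Doxo+Cyta, where 34.1% and 33.5% of all genes were called lower. The enzymes then gave 6 higher and 7 lower against Doxo, 5 and 8 against Doxo+Cyta, and 5 and 7 against NT. In that setting 8 members were higher and 27 lower against NT, 6 and 30 against Doxo, and 6 and 30 against Doxo+Cyta, while 30.1%, 33.9% and 33.3% of all genes were called higher and 30.6% were called lower against NT.

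**Figure D1:**
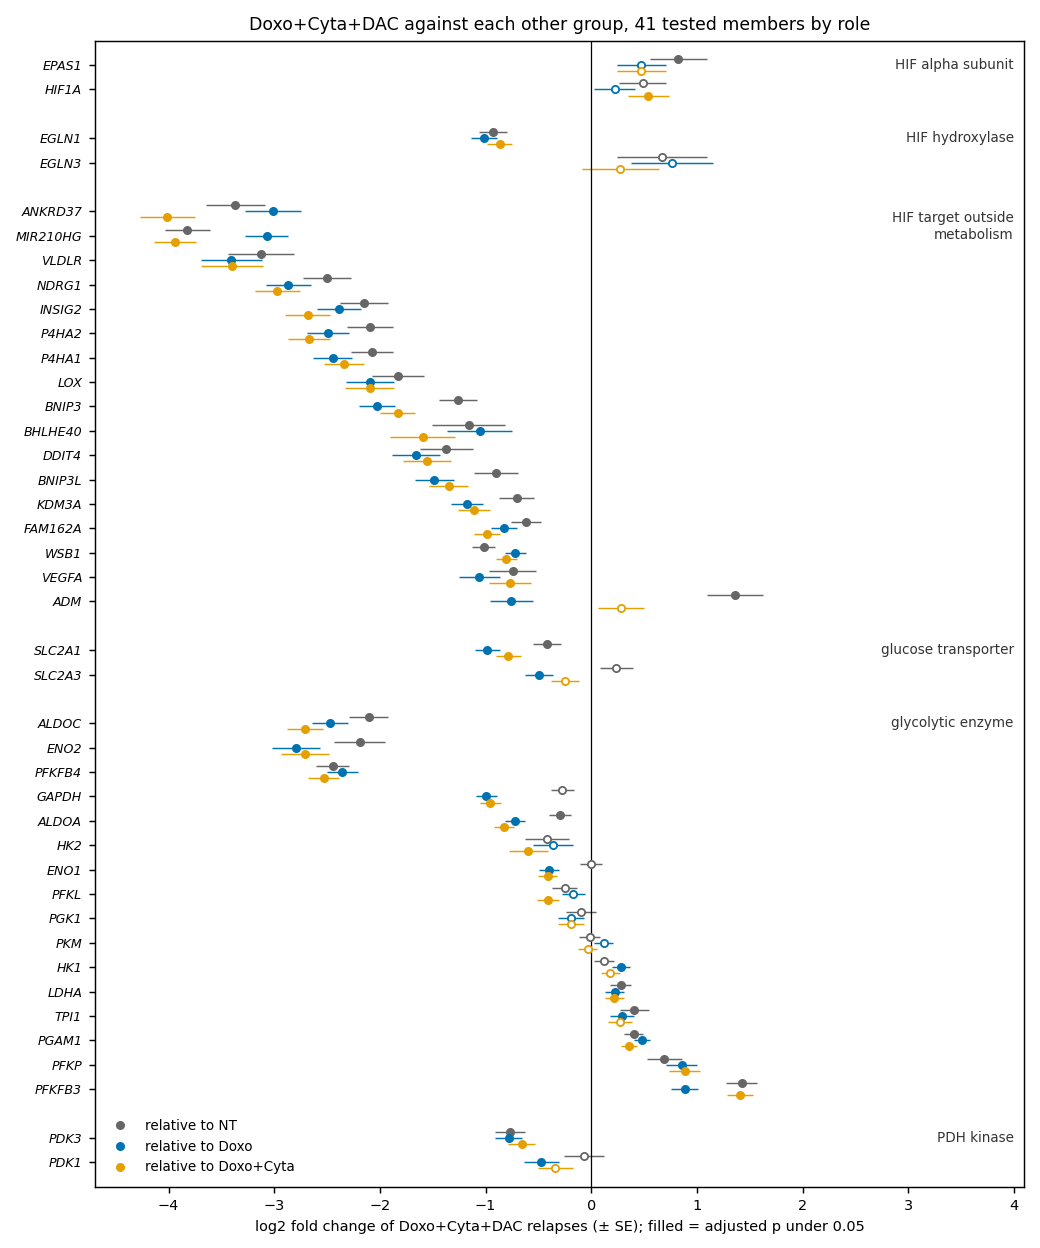
Log2 fold change of Doxo+Cyta+DAC relapses relative to NT, Doxo and Doxo+Cyta (x axis, bars ± SE, filled points adjusted p under 0.05) for 41 tested members grouped by role; MIR210 is left out because its level after Doxo+Cyta+DAC allows only a bound. HIF targets outside metabolism sit left of 0 except ADM, and ALDOC, ENO2 and PFKFB4 stand apart from the other glycolytic enzymes.

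In single libraries the mean log2 CPM over the 18 tested HIF targets outside metabolism (0.5 added to each count) lay between 3.54 and 4.03 after Doxo+Cyta+DAC, against 5.62 to 5.63 in NT, 5.65 to 5.99 in Doxo and 5.86 to 6.11 in Doxo+Cyta. For the 16 glycolytic enzymes the same mean lay between 8.90 and 9.17, against 9.32 to 9.35 in NT, 9.47 to 9.52 in Doxo and 9.47 to 9.59 in Doxo+Cyta. Both means were lowest in the Doxo+Cyta+DAC libraries without overlap, and the gap to the nearest other library was wider for the HIF targets. The enzymes took 2.17% to 2.56% of all counts after Doxo+Cyta+DAC, 2.65% to 2.76% in NT, 3.30% to 3.44% in Doxo and 3.26% to 3.63% in Doxo+Cyta. GAPDH, ENO1 and ALDOA hold most of that share. No test was run on these averages, which describe the list.

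**Figure D2:**
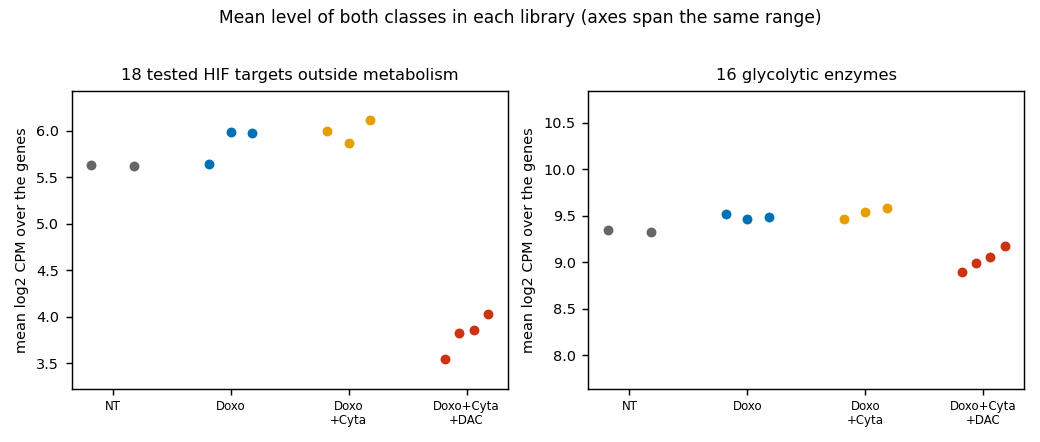
Mean log2 CPM (y axes, which span the same range) of 18 HIF targets outside metabolism and of 16 glycolytic enzymes in each library (points) by group. Doxo+Cyta+DAC libraries reach 3.54 to 4.03 for the targets and 8.90 to 9.17 for the enzymes, below all other libraries in both.

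Neither HIF alpha subunit was called lower in mRNA. HIF1A (chr14:61695401-61748259), the widely expressed oxygen-regulated subunit, stood at 47.4 and 52.8 CPM in NT, 51.0, 67.4 and 62.3 for Doxo, 54.2, 30.4 and 60.6 for Doxo+Cyta, and 57.6, 79.2, 73.1 and 71.4 after Doxo+Cyta+DAC. Its level after Doxo+Cyta+DAC overlapped that of Doxo and of Doxo+Cyta, and the lowest library of all was Doxo+Cyta replicate 20. The log2 fold change was 0.54 ± 0.20 (SE, adjusted p = 0.0278) against Doxo+Cyta, 0.22 ± 0.19 (adjusted p = 0.338) against Doxo and 0.49 ± 0.22 (adjusted p = 0.0846) against NT. EPAS1, which encodes the HIF-2 alpha subunit, stood at 20.2 and 24.3 CPM in NT, 27.8, 29.7 and 27.5 for Doxo, 24.2, 22.6 and 38.1 for Doxo+Cyta, and 49.3, 44.8, 23.1 and 40.3 after Doxo+Cyta+DAC. Doxo+Cyta+DAC replicate 32 lay within the range of the NT libraries and the other 3 lay above it, and EPAS1 was higher against NT by 0.82 ± 0.27 (adjusted p = 0.0204) and not called against Doxo or Doxo+Cyta. Calls for HIF1A against Doxo+Cyta and for EPAS1 against NT were lost under 5 and 3 of the alternatives tried. Without Doxo+Cyta replicate 20 the HIF1A change against Doxo+Cyta was 0.29 (adjusted p = 0.0843), and without Doxo replicate 4 as well it was 0.29 (adjusted p = 0.0402). HIF protein was not measured.

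Of the hydroxylases EGLN1 was lower. EGLN1, the main oxygen sensor for HIF, stood at 61.8 and 64.7 CPM in NT, 65.0, 65.9 and 70.1 for Doxo, 62.0, 48.6 and 70.7 for Doxo+Cyta, and 31.1, 32.4, 33.8 and 35.2 after Doxo+Cyta+DAC, and every Doxo+Cyta+DAC library was below every other. Its log2 fold change was -1.02 ± 0.12 (adjusted p = 9.15e-06) against Doxo, -0.87 ± 0.12 (adjusted p = 3.03e-05) against Doxo+Cyta and -0.93 ± 0.13 (adjusted p = 8.66e-05) against NT. EGLN3, a hydroxylase that is itself a HIF target, was near the limit of detection at 0.617 and 0.357 CPM in NT, 0.279, 0.698 and 0.379 for Doxo, 0.804, 0.467 and 0.672 for Doxo+Cyta, and 0.858, 0.825, 0.63 and 0.871 after Doxo+Cyta+DAC. It was called in none of these comparisons, and its values correspond to few counts per library, from 4 to 14.

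MIR210HG was among the members that fell most. Its transcript (chr11:565657-568457, minus strand) stood at 24.8 and 21.3 CPM in NT, 15.7, 13.4 and 12.1 for Doxo, 26.1, 27.5 and 21.5 for Doxo+Cyta, and 0.98, 1.79, 1.73 and 2.06 after Doxo+Cyta+DAC. The Doxo+Cyta+DAC libraries lay far below all others. The log2 fold change was -3.07 ± 0.20 (adjusted p = 1.68e-07) against Doxo and -3.94 ± 0.20 (adjusted p = 2.06e-08) against Doxo+Cyta. The hairpin gene MIR210 had 20 and 23 counts in NT, 15, 17 and 10 for Doxo, 31, 21 and 20 for Doxo+Cyta, and 0, 0, 1 and 0 after Doxo+Cyta+DAC. Set against a floor of 3 counts per library, the NT level of MIR210 exceeded that after Doxo+Cyta+DAC at least 6.11-fold, the Doxo level at least 4.53-fold and the Doxo+Cyta level at least 7.71-fold, and the medians above did not change when it was held at these bounds. Host and hairpin were both lower in each comparison with Doxo+Cyta+DAC, and both names also cover a copy of the locus on an alternate contig.

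BNIP3 and BNIP3L were lower. BNIP3, a mitochondrial receptor for autophagy, stood at 356 and 323 CPM in NT, 472, 616 and 649 for Doxo, 459, 495 and 562 for Doxo+Cyta, and 116, 123, 134 and 195 after Doxo+Cyta+DAC, and its paralog BNIP3L stood at 290.1 and 290.4 CPM in NT, 328, 476 and 502 for Doxo, 449.8, 284 and 452 for Doxo+Cyta, and 128, 145, 152 and 196 after Doxo+Cyta+DAC. Every Doxo+Cyta+DAC library lay below every other library for both. BNIP3 changed by -2.03 ± 0.17 (adjusted p = 5.76e-07) against Doxo and -1.83 ± 0.17 (adjusted p = 7.87e-07) against Doxo+Cyta on the log2 scale, and BNIP3L by -1.49 ± 0.18 (adjusted p = 1.44e-05) and -1.35 ± 0.18 (adjusted p = 2.81e-05). FAM162A, a mitochondrial protein induced by hypoxia, was also lower, with means of 217 ± 14.7 CPM (SD) in NT, 250.2 ± 13.4 for Doxo, 279 ± 36.0 for Doxo+Cyta and 141 ± 22.5 after Doxo+Cyta+DAC.

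P4HA1, P4HA2 and LOX were lower. P4HA1, a catalytic subunit of collagen prolyl 4-hydroxylase, stood at 293 and 262 CPM in NT, 247, 418 and 414 for Doxo, 330.3, 272 and 398 for Doxo+Cyta, and 52.5, 71.3, 63.0 and 76.9 after Doxo+Cyta+DAC. P4HA2, its lower-expressed paralog, stood at 15.6 and 14.8 CPM in NT, 15.9, 22.7 and 21.5 for Doxo, 22.6, 19.7 and 26.1 for Doxo+Cyta, and 2.94, 3.37, 2.99 and 5.15 after Doxo+Cyta+DAC. LOX, which cross-links collagen and elastin, stood at 21.3 and 22.9 CPM in NT, 17.0, 31.4 and 31.2 for Doxo, 26.5, 18.9 and 34.3 for Doxo+Cyta, and 6.00, 6.88, 5.35 and 6.73 after Doxo+Cyta+DAC. In none of the 3 did a Doxo+Cyta+DAC library overlap another group, and Doxo replicate 4 was the lowest Doxo library for each. Against Doxo the log2 fold changes were -2.45 ± 0.19 (adjusted p = 3.77e-07) for P4HA1, -2.49 ± 0.20 (adjusted p = 5e-07) for P4HA2 and -2.10 ± 0.23 (adjusted p = 5.21e-06) for LOX, and against Doxo+Cyta they were -2.34 ± 0.19 (adjusted p = 3.13e-07), -2.67 ± 0.20 (adjusted p = 2e-07) and -2.10 ± 0.23 (adjusted p = 4.06e-06).

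ANKRD37, a small ankyrin-repeat protein often used as a marker of HIF activity (chr4:185396686-185400236), stood at 11.3 and 10.3 CPM in NT, 5.24, 8.27 and 11.8 for Doxo, 15.5, 15.8 and 19.3 for Doxo+Cyta, and 0.796, 1.03, 1.21 and 1.11 after Doxo+Cyta+DAC. Its log2 fold change was -4.01 ± 0.26 (adjusted p = 8.19e-08) against Doxo+Cyta and -3.02 ± 0.27 (adjusted p = 9.58e-07) against Doxo. NDRG1, a stress-induced gene of differentiation and growth control, stood at 91.3 and 92.1 CPM in NT, 69.9, 144 and 141 for Doxo, 134, 111 and 136 for Doxo+Cyta, and 14.9, 20.1, 13.7 and 16.2 after Doxo+Cyta+DAC. Its log2 fold change was -2.87 ± 0.21 (adjusted p = 3.3e-07) against Doxo and -2.97 ± 0.21 (adjusted p = 1.58e-07) against Doxo+Cyta. In both genes the Doxo+Cyta+DAC libraries were close together and far below the rest.

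Regulators of lipid supply that HIF also induces were lower as well. VLDLR, the receptor for very low density lipoprotein, stood at 9.11 and 6.73 CPM in NT, 6.35, 11.5 and 11.05 for Doxo, 10.5, 6.87 and 11.4 for Doxo+Cyta, and 1.10, 0.825, 1.05 and 0.554 after Doxo+Cyta+DAC. INSIG2, which holds back sterol-driven transcription in the endoplasmic reticulum, stood at 41.2 and 39.1 CPM in NT, 37.7, 49.1 and 55.3 for Doxo, 58.7, 45.5 and 70.4 for Doxo+Cyta, and 7.66, 7.63, 7.82 and 13.4 after Doxo+Cyta+DAC. For both genes the Doxo+Cyta+DAC libraries lay below all others, while the other groups overlapped. INSIG2 in Doxo+Cyta+DAC replicate 33 lay above the other 3 libraries of its group. Log2 fold changes were -3.41 ± 0.29 (adjusted p = 7.82e-07) and -3.40 ± 0.29 (adjusted p = 5.18e-07) for VLDLR against Doxo and Doxo+Cyta, and -2.39 ± 0.21 (adjusted p = 9.91e-07) and -2.68 ± 0.21 (adjusted p = 2.9e-07) for INSIG2.

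Among genes that act on growth signals, chromatin and transcription, the falls were smaller than for ANKRD37 and NDRG1. DDIT4, an inhibitor of mTORC1 signalling, stood at 138 and 182 CPM in NT, 206, 180.0 and 198 for Doxo, 166, 212 and 167 for Doxo+Cyta, and 39.8, 63.2, 48.3 and 96.3 after Doxo+Cyta+DAC. KDM3A, a histone H3 lysine 9 demethylase, stood at 198 and 199 CPM in NT, 243, 292 and 291 for Doxo, 295, 183 and 308 for Doxo+Cyta, and 108, 136, 119 and 123 after Doxo+Cyta+DAC. BHLHE40, a transcriptional repressor of the clock and differentiation, stood at 102 and 103 CPM in NT, 68.96, 108 and 109 for Doxo, 115, 136 and 165 for Doxo+Cyta, and 23.7, 83.6, 39.2 and 36.8 after Doxo+Cyta+DAC. Doxo+Cyta+DAC replicate 31 of BHLHE40 lay above the lowest Doxo library, Doxo replicate 4, so these 2 groups overlapped, whereas DDIT4 and KDM3A did not overlap. Against Doxo the log2 fold changes were -1.66 ± 0.23 (adjusted p = 3.37e-05) for DDIT4, -1.18 ± 0.15 (adjusted p = 1.91e-05) for KDM3A and -1.06 ± 0.31 (adjusted p = 0.00938) for BHLHE40, and against Doxo+Cyta -1.56 ± 0.23 (adjusted p = 4.92e-05), -1.11 ± 0.15 (adjusted p = 2.78e-05) and -1.60 ± 0.31 (adjusted p = 0.000525). WSB1, a ubiquitin ligase adaptor, had means of 224 ± 16.6 CPM (SD) in NT, 182 ± 9.82 for Doxo, 193 ± 17.9 for Doxo+Cyta and 111 ± 8.82 after Doxo+Cyta+DAC and was lower in all 3 comparisons.

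Secreted products did not move alike. VEGFA, the main growth factor of blood vessels, averaged 87.1 ± 1.44 CPM (SD) in NT, 108 ± 7.30 for Doxo, 88.8 ± 16.1 for Doxo+Cyta and 52.1 ± 16.3 after Doxo+Cyta+DAC, with log2 fold changes of -1.06 ± 0.20 (adjusted p = 0.000411) against Doxo and -0.77 ± 0.20 (adjusted p = 0.00395) against Doxo+Cyta. ADM, the vasodilator adrenomedullin, was the exception of its class: it averaged 2.79 ± 0.0937 CPM in NT, 12.1 ± 1.88 for Doxo, 5.91 ± 0.465 for Doxo+Cyta and 7.16 ± 1.99 after Doxo+Cyta+DAC. It was higher after Doxo+Cyta+DAC than in NT by 1.36 ± 0.27 (adjusted p = 0.000979), lower than in Doxo, at -0.76 ± 0.21 (adjusted p = 0.00641), and not called against Doxo+Cyta at 0.28 ± 0.22 (adjusted p = 0.283). CA9, a cell-surface enzyme of pH control that is a common tissue marker of hypoxia, had 1 and 3 counts in NT, 2, 3 and 4 for Doxo, 3, 3 and 7 for Doxo+Cyta and 0 in each Doxo+Cyta+DAC library, too few to test. STC2 had at most 3 counts in any library.

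Both glucose transporters were higher in Doxo than in NT and lower in Doxo+Cyta+DAC than in Doxo. SLC2A1 (GLUT1), the basal glucose transporter, stood at 382 and 383 CPM in NT, 521, 584 and 592 for Doxo, 541, 380.2 and 561 for Doxo+Cyta, and 262, 285, 299 and 299 after Doxo+Cyta+DAC. SLC2A3 (GLUT3), a transporter of high affinity, stood at 303 and 309 CPM in NT, 468, 524 and 531 for Doxo, 449, 351 and 485 for Doxo+Cyta, and 290.0, 413, 406 and 334 after Doxo+Cyta+DAC. SLC2A1 in Doxo+Cyta+DAC lay below all other libraries, while SLC2A3 overlapped NT and Doxo+Cyta. SLC2A1 changed by -0.98 ± 0.12 (adjusted p = 1.23e-05) against Doxo and -0.42 ± 0.14 (adjusted p = 0.0198) against NT, and SLC2A3 by -0.49 ± 0.13 (adjusted p = 0.0059) against Doxo and 0.24 ± 0.15 (adjusted p = 0.217) against NT. SLC2A1 and P4HA2 each have an antisense gene in the table, and without strand their reads cannot be told apart where they overlap.

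Within glycolysis isozymes of a single step changed to different degrees or in different directions. ALDOC, the brain-type aldolase (chr17:28573115-28576933), stood at 395 and 348 CPM in NT, 372, 531 and 533 for Doxo, 594, 543 and 558 for Doxo+Cyta, and 62.9, 97.6, 76.7 and 108 after Doxo+Cyta+DAC. ALDOA, the aldolase that most cells use, stood at 2213 and 2092 CPM in NT, 2621, 3003 and 3077 for Doxo, 2956, 3215 and 3151 for Doxo+Cyta, and 1508, 1778, 1863 and 1872 after Doxo+Cyta+DAC. Both were lower against Doxo and Doxo+Cyta, ALDOC by -2.47 ± 0.17 (adjusted p = 2.2e-07) and -2.71 ± 0.17 (adjusted p = 7.36e-08) and ALDOA by -0.72 ± 0.10 (adjusted p = 2.16e-05) and -0.82 ± 0.10 (adjusted p = 6.04e-06). Per base of exon, ALDOA exceeded ALDOC by 2.55-fold to 3.61-fold in the libraries without decitabine and by 8.88-fold to 12.4-fold in those with it.

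Enolase showed the same arrangement. ENO2, the neuronal enolase (chr12:6914450-6923696), stood at 218 and 214 CPM in NT, 263, 361 and 363 for Doxo, 331, 267 and 331 for Doxo+Cyta, and 38.6, 29.4, 51.0 and 70.6 after Doxo+Cyta+DAC. ENO1, the common enolase, stood at 6188 and 5894 CPM in NT, 7965, 7786 and 8049.9 for Doxo, 6917, 8886 and 8265 for Doxo+Cyta, and 5529.6, 6073, 5954 and 6532 after Doxo+Cyta+DAC. ENO2 changed by -2.80 ± 0.23 (adjusted p = 5.58e-07) against Doxo and -2.71 ± 0.23 (adjusted p = 4.33e-07) against Doxo+Cyta, while ENO1 changed by -0.40 ± 0.09 (adjusted p = 0.00225) and -0.41 ± 0.09 (adjusted p = 0.00162) and did not differ detectably from NT at -0.01 ± 0.11 (adjusted p = 0.976). Per base of exon, ENO1 exceeded ENO2 by 15.6-fold to 24.8-fold without decitabine and by 68.9-fold to 154-fold with it.

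The bifunctional enzymes that set fructose 2,6-bisphosphate, the activator of phosphofructokinase, moved in opposite directions. PFKFB4 (chr3:48517684-48556794) stood at 242 and 245 CPM in NT, 255, 218 and 215 for Doxo, 240.3, 241 and 294 for Doxo+Cyta, and 34.2, 41.4, 46.7 and 56.6 after Doxo+Cyta+DAC. PFKFB3 (chr10:6144880-6235544) stood at 30.9 and 34.4 CPM in NT, 57.9, 43.8 and 40.8 for Doxo, 31.2, 36.5 and 31.3 for Doxo+Cyta, and 87.3, 88.5, 85.2 and 89.2 after Doxo+Cyta+DAC. PFKFB4 was below all other libraries after Doxo+Cyta+DAC and PFKFB3 was above them. PFKFB4 changed by -2.36 ± 0.15 (adjusted p = 1.43e-07) against Doxo and -2.53 ± 0.15 (adjusted p = 4e-08) against Doxo+Cyta, and PFKFB3 by 0.88 ± 0.12 (adjusted p = 4.01e-05) and 1.41 ± 0.13 (adjusted p = 7.87e-07). Per base of exon PFKFB3 held 0.0764 to 0.163 of the PFKFB4 level without decitabine and 1.13 to 1.83 of it with decitabine.

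Phosphofructokinase itself and hexokinase moved less than PFKFB4. PFKP, the platelet-type phosphofructokinase, stood at 251 and 254 CPM in NT, 293, 185 and 197 for Doxo, 204, 249.6 and 208 for Doxo+Cyta, and 458, 383, 407 and 382 after Doxo+Cyta+DAC. PFKL, the liver type, stood at 501 and 482 CPM in NT, 509, 447 and 437 for Doxo, 508, 615 and 519 for Doxo+Cyta, and 368, 422, 467 and 395 after Doxo+Cyta+DAC. PFKP was above all other libraries after Doxo+Cyta+DAC, whereas PFKL overlapped Doxo. HK2, the inducible hexokinase, stood at 237 and 268 CPM in NT, 208, 260.5 and 261 for Doxo, 304, 177 and 374 for Doxo+Cyta, and 191, 168, 205 and 193 after Doxo+Cyta+DAC, and HK1, the constitutive one, at 355 and 369 CPM in NT, 345, 307 and 316 for Doxo, 357, 315 and 368 for Doxo+Cyta, and 376, 399, 388 and 411 after Doxo+Cyta+DAC. HK1 after Doxo+Cyta+DAC was above all other libraries but was called only against Doxo, and HK2 was called only against Doxo+Cyta and overlapped Doxo+Cyta replicate 20. Log2 fold changes for PFKP were 0.86 ± 0.15 (adjusted p = 0.000196) against Doxo and 0.89 ± 0.15 (adjusted p = 0.000138) against Doxo+Cyta.

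Ratios between related genes within a library do not depend on scaling, and 11 pairs were tested for a shift of the log2 ratio of counts in Doxo+Cyta+DAC against Doxo and against Doxo+Cyta by two-sided exact permutation tests, 22 tests in all. The smallest p that 4 against 3 libraries allow is 0.0286, which 16 of the 22 tests reached (adjusted p = 0.0393 over the 22). How many pairs of unrelated genes reach this p was not counted, so the 16 cannot be set against a background. Among all tested genes 29.1% were called higher and 30.4% lower against Doxo, and 29.8% and 30.5% against Doxo+Cyta. PFKFB3/PFKFB4 shifted by 3.27 log2 units against Doxo and 3.96 against Doxo+Cyta. ENO1/ENO2 shifted by 2.46 and 2.37, and ALDOA/ALDOC by 1.76 and 1.91. HK1/HK2 rose by 0.65 and 0.71, while PFKL/PFKP shifted by -1.06 and -1.29. Outside the enzymes, EGLN1/EGLN3 shifted by -1.87 and -1.16, BNIP3/BNIP3L by -0.57 and -0.52 and SLC2A1/SLC2A3 by -0.48 and -0.52. HIF1A/EPAS1, P4HA1/P4HA2 and PDK1/PDK3 reached the smallest p in neither comparison, with shifts between -0.20 and 0.34. A p at the smallest possible value says that the libraries did not overlap, and leaving out any 1 library of these groups makes it unreachable. A larger p does not mean overlap: PDK1/PDK3 did not overlap either, with p = 0.0571 by this permutation test in both comparisons.

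Most other enzymes changed less than ALDOC, ENO2 and PFKFB4. GAPDH averaged 9530.0 ± 515 CPM (SD) in NT, 15684 ± 1721 for Doxo, 15282 ± 696 for Doxo+Cyta and 7884 ± 789.7 after Doxo+Cyta+DAC, with a log2 fold change of -0.99 ± 0.10 (adjusted p = 2.36e-06) against Doxo and, not called, -0.27 ± 0.11 (adjusted p = 0.0559) against NT. PGK1, PKM, which makes pyruvate, and their neighbours PGAM1, TPI1 and LDHA differed by 0.48 log2 units or less in all 3 comparisons. PGAM1, phosphoglycerate mutase, was higher in all 3, by 0.48 ± 0.08 (adjusted p = 0.00014) against Doxo and 0.36 ± 0.08 (adjusted p = 0.00125) against Doxo+Cyta. LDHA, which turns pyruvate into lactate, was higher by 0.22 ± 0.09 (adjusted p = 0.0421) and 0.22 ± 0.09 (adjusted p = 0.0435). The LDHA calls were lost under 9 of the alternatives tried against Doxo, 14 against Doxo+Cyta and 12 against NT, and the TPI1 call against Doxo under 10. PGK1 and PKM were called in none. Several of these genes have pseudogene copies whose reads were not told apart here.

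The pyruvate dehydrogenase kinases, which keep pyruvate out of mitochondria, were modestly lower. PDK1, a classic HIF target, averaged 90.7 ± 2.24 CPM (SD) in NT, 119.6 ± 9.76 for Doxo, 109 ± 20.9 for Doxo+Cyta and 86.3 ± 19.7 after Doxo+Cyta+DAC, and was called lower against Doxo alone (-0.47 ± 0.17, adjusted p = 0.0243). PDK3 averaged 39.6 ± 1.44, 40.0 ± 2.07, 36.7 ± 4.69 and 23.3 ± 3.24 CPM in the same order and was lower in all 3 comparisons.

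Relapses without decitabine lay much closer to NT, and where members were called they were mostly higher. In Doxo against NT 8 members were higher and 1 was lower, where 6.06% and 4.63% of all tested genes were called higher and lower. These were ADM at 2.11 ± 0.28 (adjusted p = 0.000897), SLC2A3 at 0.73 ± 0.16 (adjusted p = 0.0145), GAPDH at 0.72 ± 0.12 (adjusted p = 0.00389), BNIP3, SLC2A1, PFKFB3, ALDOA and ENO1 upward and MIR210HG at -0.75 ± 0.20 (adjusted p = 0.0296) downward. In Doxo+Cyta against NT, GAPDH at 0.68 ± 0.12 (adjusted p = 0.0239) and ALDOA at 0.53 ± 0.12 (adjusted p = 0.0428) were higher and none was lower, where 0.911% of all genes were called higher and 0.551% lower. Between both relapses, Doxo exceeded Doxo+Cyta for ADM (1.03 ± 0.23, adjusted p = 0.0256) and PFKFB3 (0.53 ± 0.13, adjusted p = 0.0453) and fell below it for ANKRD37 (-0.997 ± 0.23, adjusted p = 0.0328) and MIR210HG (-0.87 ± 0.18, adjusted p = 0.0192), where 2.32% and 1.07% of all genes were called higher and lower. These small counts depend on single libraries, and so do the genes called. ADM was not called higher in Doxo than in Doxo+Cyta without Doxo replicate 4 and Doxo+Cyta replicate 20, nor without Doxo+Cyta replicate 22. Without Doxo replicate 4 and Doxo+Cyta replicate 20, 16 members were higher and 4 lower in Doxo against NT, where 18.2% and 19.2% of all genes were called, and 14 higher and 1 lower in Doxo+Cyta against NT, where 6.07% and 8.40% were called. In the same setting 1 was higher and 3 were lower in Doxo against Doxo+Cyta, where 5.17% and 3.79% were called, while leaving out either NT library left 1 call in Doxo and 0 in Doxo+Cyta.

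Other genes of the pathway gave a similar picture with more exceptions. Of 30 further HIF targets, 25 were tested, and 17 were lower and 2 higher against Doxo and against Doxo+Cyta, with medians of -1.18 and -0.58. For these and the regulators below, the shares of all tested genes called lower were 30.4% and 30.5%, and those called higher 29.1% and 29.8%. CCNG2, cyclin G2, changed by -2.75 ± 0.29 (adjusted p = 3.5e-06) against Doxo, and HILPDA, a lipid droplet protein, by -2.23 ± 0.23 (adjusted p = 2.74e-06). ANG, the ribonuclease angiogenin, had 0 to 2 counts in the Doxo+Cyta+DAC libraries and 11 to 43 in the others. LOXL2, a lysyl oxidase like LOX, went the other way by 2.24 ± 0.42 (adjusted p = 0.000393), at low levels throughout. Of 15 regulators of HIF, 13 were tested, and 7 were higher and 3 lower against Doxo and 8 and 3 against Doxo+Cyta. ARNT, the constant partner of both alpha subunits, stood at 70.4 and 75.3 CPM in NT, 70.4, 109.8 and 103 for Doxo, 93.6, 60.3 and 96.4 for Doxo+Cyta, and 30.8, 31.4, 31.0 and 36.6 after Doxo+Cyta+DAC. It was lower, at -1.54 ± 0.17 (adjusted p = 6.17e-06) against Doxo and -1.36 ± 0.17 (adjusted p = 1.44e-05) against Doxo+Cyta, with no overlap between these groups. ARNT2, its paralog, was called higher in all 3 comparisons and stood at 0.36 and 0.238 CPM in NT, 0.558, 0 and 0 for Doxo, 0.186, 0.133 and 0.0611 for Doxo+Cyta, and 3.19, 1.24, 2.204 and 2.61 after Doxo+Cyta+DAC. Few reads lie behind these values, and per base of exon its level in Doxo+Cyta+DAC libraries stayed below that of ARNT (0.352 ± 0.125 against 6.57 ± 0.559 CPM per kilobase).

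Of 24 further genes of glycolysis and pyruvate handling, 18 were tested, and 8 were higher and 6 lower against Doxo and 9 and 6 against Doxo+Cyta. Over all tested genes 29.1% were called higher and 30.4% lower against Doxo, and 29.8% and 30.5% against Doxo+Cyta. ENO3, the muscle enolase, was lower, at -1.81 ± 0.14 (adjusted p = 4.42e-07) against Doxo. PGAM2, the muscle mutase, was higher by 1.16 ± 0.33 (adjusted p = 0.00758) at low level, G6PC3, a glucose 6-phosphatase, by 1.44 ± 0.17 (adjusted p = 1.06e-05), and DLAT, a subunit of pyruvate dehydrogenase, by 1.14 ± 0.11 (adjusted p = 1.44e-06). Of 9 genes known as targets of miR-210, 2 were higher and 3 lower against Doxo and against Doxo+Cyta, with medians of -0.06 and -0.11, and 3 were higher and 2 lower against NT, with a median of 0.07. These counts lay near the shares over all genes, which against NT were 24.9% higher and 23.7% lower. EFNA3, an ephrin that hypoxia also induces, was lower, at -2.81 ± 0.27 (adjusted p = 1.84e-06) and RAD52, a recombination protein, by -1.47 ± 0.14 (adjusted p = 1.9e-06) against Doxo.

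HEL cells have erythroid and megakaryocytic traits, and 13 markers of these lineages were all expressed, among them TFRC, GATA1, HBG2 and ITGA2B. Of these 13, 7 were lower and 1 higher in Doxo+Cyta+DAC against Doxo and 9 and 1 against Doxo+Cyta, with medians of -0.47 and -0.52. Among all tested genes 30.4% and 30.5% were called lower in these comparisons, and 29.1% and 29.8% higher. JAK2, the kinase of erythropoietin signalling, was lower, at -1.66 ± 0.19 (adjusted p = 8.72e-06) and -1.34 ± 0.19 (adjusted p = 4.36e-05). The summed level of the 13 was 10084 to 11123 CPM in NT, 10985 to 11909 for Doxo, 11931 to 12802 for Doxo+Cyta and 7708 to 10367 after Doxo+Cyta+DAC. Their part in the fall of the HIF targets was not tested. Of 12 markers of other cell types 3 passed the filter, MS4A1 and KRT5 were at 0 in every library, PECAM1, which megakaryocytes also carry, was well expressed (singled out after its values were seen), and CD79A, a B-cell gene at low level here, was lower, at -1.07 ± 0.28 (adjusted p = 0.00503) against Doxo. The 12 summed to 135 to 141 CPM in NT, 103 to 118 for Doxo, 102 to 124 for Doxo+Cyta and 123 to 145 after Doxo+Cyta+DAC.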

How the data were processed

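RNA sequencing of HEL cells (12 libraries) was deposited as raw gene counts, for which the authors used Bowtie2 2.2.8 on GRCh38 and featureCounts 1.6.0. Bowtie2 does not splice reads, which lowers counts at exon junctions and limits comparisons of level between genes. Of 26485 genes, 4 had a missing count and were left out. Total counts were 12763582 to 19106235 per library, and 3 counts were taken as the floor of detection. The floor covers counting error only, and standard errors come from the fit and include the spread between libraries.

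The counts were filtered with filterByExpr and scaled by TMM, and all 12 libraries were fitted together with edgeR 4.0.16 (R 4.3.3). The quasi-likelihood test was adjusted by Benjamini-Hochberg over 14164 genes, with calls at 0.05. Isozyme pairs were compared as log2 ratios of counts with 0.5 added, by exact permutation tests in numpy 2.4.6. Alternatives were DESeq2 1.42.0, other scalings and filters, a fit on the compared groups alone, a stricter call, and leaving out each library. One further alternative, without Doxo replicate 4 and Doxo+Cyta replicate 20, was chosen after seeing the data, because their counts differed from those of their group by a chi-square per degree of freedom of 27.3 to 48.5. No pair of libraries agreed within sampling noise.

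The members and lists were chosen with earlier results of these data known. Members were named with every library's value when called in either direction by over 2-fold against both other relapses, and all of these were lower. Members of a tested pair were also given so, except PDK1 and PDK3, which have group means. CA9 was given as counts. From other lists, up to 3 genes per direction past the same fold were eligible.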

Additional observations from a re-analysis of the deposited data

Results flagged for a closer look

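Of the 44 members, 2 had a Doxo+Cyta+DAC library whose gap to its nearest neighbour took more of the range of the 4 libraries than Dixon's 95% critical value of 0.829 allows, where chance alone marks about 1 in 20 groups. MIR210 was highest in Doxo+Cyta+DAC replicate 32 at 0.0525 CPM, which is 1 count where the other 3 libraries had 0. INSIG2 was highest in Doxo+Cyta+DAC replicate 33 at 13.4 CPM, and its gap was 0.968 of the range. That library still lay below every library of the other groups.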

How the results depend on the processing

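No member's call changed direction under any alternative run. With a stricter call (adjusted p under 0.01 and over 2-fold) the members called fell from 31 to 17 against NT, from 35 to 19 against Doxo and from 33 to 18 against Doxo+Cyta for Doxo+Cyta+DAC, from 9 to 1 for Doxo against NT, from 2 to 0 for Doxo+Cyta against NT and from 4 to 0 between Doxo and Doxo+Cyta. The share of all tested genes that pass the stricter call was not counted, so these counts have no background beside them. Over 21 settings at the usual call, lower calls among HIF targets outside metabolism ranged from 15 to 18 against NT, from 16 to 19 against Doxo and from 15 to 18 against Doxo+Cyta. The number of targets tested changed with the filter. Without a filter 18, 19 and 18 were lower in the same order, and with at least 10 counts in every sample 15, 16 and 15.

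Counts in comparisons without decitabine were unstable. Leaving out 1 library at a time gave 1 to 12 members for Doxo against NT, 0 to 3 for Doxo+Cyta against NT and 0 to 5 between Doxo and Doxo+Cyta. Without Doxo replicate 4 and Doxo+Cyta replicate 20, a setting chosen after seeing the data, 20 and 15 members were called in the first pair of comparisons, where 18.2% and 6.07% of all genes were called higher and 19.2% and 8.40% lower. DESeq2 called 4 for Doxo+Cyta against NT, and a fit on the compared groups alone called 0 there and 0 between Doxo and Doxo+Cyta. Their causes were not tested. Leaving out an NT library leaves 1, which is then assumed to vary like the other groups.

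All 16 isozyme calls were lost when any 1 library of the compared groups was left out, since the smallest p is then above the threshold after adjustment. With 5 added to each count all 16 were kept. Depth limits CA9, STC2, EGLN3 and MIR210. No paired analysis was possible because the groups share no replicate numbers.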
